A study of Mus musculus with 4 samples.

Results

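The genes described are 10 components of the transforming growth factor beta (TGF-beta) pathway: the ligand genes Tgfb1, Tgfb2 and Tgfb3, the receptor genes Tgfbr1, Tgfbr2 and Tgfbr3, and the signal transducer genes Smad2, Smad3, Smad4 and Smad7. They were listed by symbol and matched exactly to the symbols of the authors' deposited fold change table. All 10 were found, each with 1 probe set, among 29432 genes measured. In KO liver the type II receptor gene Tgfbr2 and the ligand gene Tgfb2 rose, and no gene of the 10 fell. The other 8 did not pass the test, among them the receptor-regulated Smad2 and Smad3 and the shared partner Smad4.

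TGF-beta is secreted bound to a latency peptide and held in the matrix until integrins or proteases release it. The released dimer binds the type II receptor, which recruits and phosphorylates the type I receptor, and the type I receptor phosphorylates SMAD2 and SMAD3. These join SMAD4 and enter the nucleus, where they change transcription, and one of the genes they switch on encodes SMAD7, which blocks the receptor. In liver the pathway is known for restraining hepatocyte growth and for driving stellate cells to make scar matrix, and much of the ligand comes from cells other than hepatocytes.

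Affymetrix MoGene 2.0 ST arrays gave the expression of genes in whole liver of 4 mice, 2 of the control group FF and 2 of the Gdown1 knockout group KO. All were untreated C57BL/6 mice aged 8 weeks on a standard diet, killed around midday, and arrays of 1 group are labelled as biological replicates. Gdown1, the product of Polr2m, associates with RNA polymerase II. In the authors' deposited table the comparison is named Alb-cre against f/f: f/f denotes a floxed gene, and the albumin promoter drives Cre recombinase in hepatocytes, so other liver cells would keep the gene. Cre without the floxed gene was not among the groups, so what Cre itself does and what the loss of Gdown1 does cannot be told apart. The comparison asked which liver transcripts differ without Gdown1. Values are log2 expression values from RMA. A difference of 1 is a 2-fold change, and since probe sets differ in brightness, only differences between arrays are compared across genes.

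Polr2m lay at 7.35 and 7.38 on the FF arrays and at 6.35 and 6.18 on the KO arrays, so the targeted transcript was lower in both KO livers. Array medians over 41345 probe sets lay from 2.88 to 2.92. The hepatocyte markers Alb, Ttr, Apoa1, Apob, Cps1 and Hnf4a were all at 8.95 or above on every array. Olfactory receptor genes, taken to be silent in liver, served as a guide to background: 95% of 1127 of them had means under 2.82. Over all genes, 522 of 29432 passed limma at an adjusted p of 0.05, or 1.77%, with 0.996% higher and 0.778% lower in KO. Small numbers of arrays limit the precision of every value.

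Tgfbr2 encodes the type II receptor, the kinase that binds the ligand first. It lies on chromosome 9 from 116087695 to 116175363 (GRCm38.p6). Its level was 5.53 and 5.62 in FF and 6.51 and 6.56 in KO. Both KO arrays lay above both FF arrays, with a gap between the groups many times the spread within either. The log2 fold change was 0.96 ± 0.12 (SE, 2 arrays a group), or 1.94-fold, with a 95% interval from 0.67 to 1.24 and a limma adjusted p of 0.0261. Of all 29432 genes, 2.17% had a larger change in either direction. In the authors' deposited table, whose averages were made in a way not given in the sources used here, the log2 difference of Tgfbr2 was 0.43, a clearly smaller value.

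Tgfb2 encodes one of the 3 TGF-beta ligands and lies on chromosome 1 from 186622787 to 186709697. It was at 2.57 and 2.45 in FF and at 3.35 and 3.22 in KO. The FF arrays lay under the background guide of 2.82 and the KO arrays above it, so the transcript was close to background in control liver and low in KO liver. The log2 fold change was 0.78 ± 0.12 (SE, 2 arrays a group), or 1.71-fold, with a 95% interval from 0.48 to 1.08 and a limma adjusted p of 0.0481. Folds from such dim probe sets are compressed by RMA. The authors' deposited table gave a log2 difference of 0.67.

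Both calls rest on all 4 arrays. With any single array left out limma called no gene at all (3364 to 3958 genes at an unadjusted p under 0.05), while the log2 fold change stayed from 0.92 to 1.00 for Tgfbr2 and from 0.72 to 0.84 for Tgfb2. Both calls were also lost when all 41345 probe sets were tested, with adjusted p = 0.0929 for Tgfbr2 and 0.124 for Tgfb2.

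The sequence just before the annotated start of each of these 2 genes is shown, since they are the members that passed the test. Each run holds 250 bases from the RefSeq promoter table for GRCm38.p6, on the gene's own strand, and ends at the base before the start. The start listed for Tgfb2 lies inside its annotated gene span. Capitals mark matches, on either strand, to 5 motifs: the motif CAGAC, which contains the short element that SMAD3 and SMAD4 contact; the GC-rich box of the factor Sp1 (GGGCGG); the cyclic AMP response element (TGACGTCA); the E-box of basic helix-loop-helix factors (CACGTG); and the element read by the TATA-binding protein (TATAAA). No motif overlapped another in the 2 windows.
Tgfbr2, chr9:116175364-116175613, minus strand: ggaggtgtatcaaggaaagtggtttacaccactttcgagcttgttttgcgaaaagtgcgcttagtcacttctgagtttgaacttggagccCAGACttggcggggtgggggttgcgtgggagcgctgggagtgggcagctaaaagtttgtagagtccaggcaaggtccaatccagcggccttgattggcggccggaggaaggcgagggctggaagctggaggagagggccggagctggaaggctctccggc
Tgfb2, chr1:186705990-186706239, minus strand: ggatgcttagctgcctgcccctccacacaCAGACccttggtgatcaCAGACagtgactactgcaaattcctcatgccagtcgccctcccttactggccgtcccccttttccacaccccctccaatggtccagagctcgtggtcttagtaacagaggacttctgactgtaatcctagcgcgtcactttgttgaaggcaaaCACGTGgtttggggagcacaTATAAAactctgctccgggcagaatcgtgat

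The windows of Tgfbr2 and Tgfb2 shared only 1 of the motifs searched. CAGAC was found 1 time before Tgfbr2 and 2 times before Tgfb2, and 42.2% of 32851 mouse promoter windows of the same length held it, so a match is common. Tgfb2 had in addition 1 CACGTG, found in 6.02% of windows, and 1 TATAAA, found in 12.4%. Neither window held GGGCGG, found in 32.7% of all, or TGACGTCA, found in 1.55%. Windows were also at hand for Tgfb1, Smad3 and Tgfbr1, the last with 2 annotated starts. Tgfb1 had 5 GC boxes, Smad3 had 2, and the 2 windows of Tgfbr1 had 2 and 0. The GC content was 58.4% for Tgfbr2 and 53.6% for Tgfb2, against 75.2% for Tgfb1 and a median of 52.4% over all windows. A match describes the letters of the window and not a bound site.

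**Figure D1:**
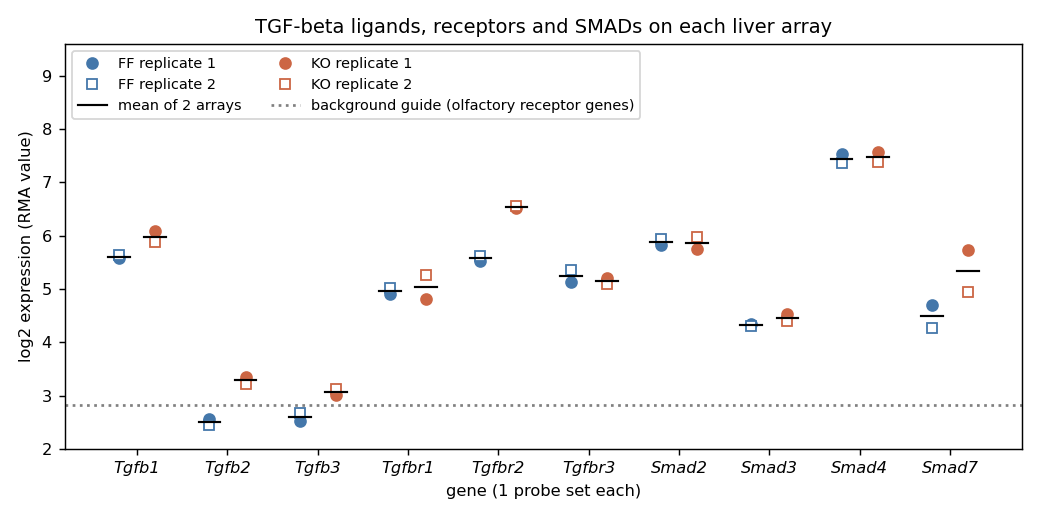
Log2 expression (RMA value, vertical axis) of the 10 genes (horizontal axis) on each array, with FF in blue and KO in orange, replicate 1 filled and replicate 2 open, and black bars for the mean of the 2 arrays. The dotted line is the background guide of 2.82. Tgfbr2 and Tgfb2 are tight within each group and apart between groups, whereas Smad7 is spread from 4.95 to 5.73 within KO.

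The other ligands did not pass the test. Tgfb1, the best studied of the 3 and a product of Kupffer and stellate cells, lies on chromosome 7 from 25687002 to 25705077. It was at 5.57 and 5.63 in FF and at 6.08 and 5.88 in KO, a log2 fold change of 0.38 ± 0.13 (SE, n = 2 each) with a limma adjusted p of 0.219. Tgfb3, on chromosome 12 from 86056743 to 86079041, was at 2.52 and 2.68 in FF and at 3.02 and 3.13 in KO. Its log2 fold change was 0.48 ± 0.13 (SE), with a limma adjusted p of 0.142 and an FF mean under the background guide, like that of Tgfb2. For all 3 ligands both KO arrays lay above both FF arrays, which held for 21.6% of all genes. The authors' deposited table also had each ligand higher in KO, with log2 differences of 0.42 for Tgfb1 and 0.58 for Tgfb3.

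The other receptors overlapped between the groups. Tgfbr1, the type I receptor kinase that TGFBR2 activates, lies on chromosome 4 from 47353222 to 47414926. It was at 4.91 and 5.02 in FF and at 4.80 and 5.25 in KO, a log2 fold change of 0.06 with a 95% interval from -0.37 to 0.50. Tgfbr3, also called betaglycan, is a co-receptor that presents ligand to TGFBR2, above all TGF-beta2, and lies on chromosome 5 from 107106567 to 107289629. It was at 5.14 and 5.35 in FF and at 5.21 and 5.10 in KO, with a log2 fold change of -0.09 and an interval from -0.41 to 0.24. The intervals of both include modest changes in either direction, but not a 2-fold one. The authors' deposited table gave log2 differences of 0.34 for Tgfbr1 and -0.34 for Tgfbr3.

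Ratios of genes within each array show whether members changed unequally; only their shift between the groups has meaning. The log2 ratio of Tgfbr2 to Tgfbr1 was 0.62 and 0.60 in FF and 1.71 and 1.30 in KO, a shift of 0.90. That of Tgfbr2 to Tgfbr3 was 0.39 and 0.27 in FF and 1.30 and 1.46 in KO, a shift of 1.05. Tgfb2 shifted against Tgfb1 by 0.40 and against Tgfb3 by 0.30, and Smad7 against Smad3 by 0.71. In each of the 5 pairs the KO arrays had the higher ratios. The gene with the larger log2 fold change was put first in every pair, so the sign of the shift was fixed by that order. An exact two-sided permutation test over 4 arrays cannot give less than 0.333, so these differences between members are given as values only.

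The receptor-regulated SMADs and SMAD4 differed little. Smad2, on chromosome 18 from 76241090 to 76311748, was at 5.83 and 5.93 in FF and at 5.76 and 5.97 in KO. Smad3, which binds DNA directly and lies on chromosome 9 from 63646766 to 63757994, was at 4.34 and 4.30 in FF and at 4.52 and 4.40 in KO. Smad4, the partner of both, on chromosome 18 from 73634790 to 73703791, was at 7.53 and 7.36 in FF and at 7.57 and 7.39 in KO. Smad2 and Smad4 overlapped between the groups, and the KO arrays of Smad3 lay slightly above the FF arrays. The log2 fold changes were -0.01, 0.14 and 0.03, with 95% intervals from -0.34 to 0.31, from -0.15 to 0.43 and from -0.30 to 0.36. These are transcript levels, and phosphorylation, by which these proteins are switched on, was not measured.

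Smad7, the inhibitory SMAD that brings a ubiquitin ligase to the receptor, lies near Smad2 on chromosome 18, from 75367365 to 75395935. It was at 4.71 and 4.28 in FF and at 5.73 and 4.95 in KO. Both KO arrays were higher than both FF arrays, but they differed by more from each other than the lower KO array did from the higher FF array. The log2 fold change of 0.85 ± 0.29 (SE) was close in size to that of Tgfb2, with a larger error and a limma adjusted p of 0.217. Against the FF mean, KO replicate 1 was at 1.24 and KO replicate 2 at 0.45. In the authors' deposited table Smad7 went the other way, with a log2 difference of -0.11.

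Over the 10 genes, 2 rose and 0 fell, against 1.77% called of all genes. By mean, 8 were higher in KO, against 46.0% of all genes. At an unadjusted p under 0.05 there were 5, against 17.0% of all genes. The KO arrays lay above the FF arrays for 6 genes (21.6% of all genes) and below them for 0 (25.0% of all genes), and 4 overlapped. The median log2 fold change of the 10 was 0.26, or 0.31 on KO replicate 1 and 0.28 on KO replicate 2 against the FF mean, and that of all genes was -0.02. Direction was the same in the authors' deposited table for 8 of the 10, the exceptions being Smad2 and Smad7. The smallest change that was called among all genes in this fit was 0.72. Larger changes could also fail, as that of Smad7 did at 0.85, so a gene without a call is not shown to be unchanged.

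**Figure D2:**
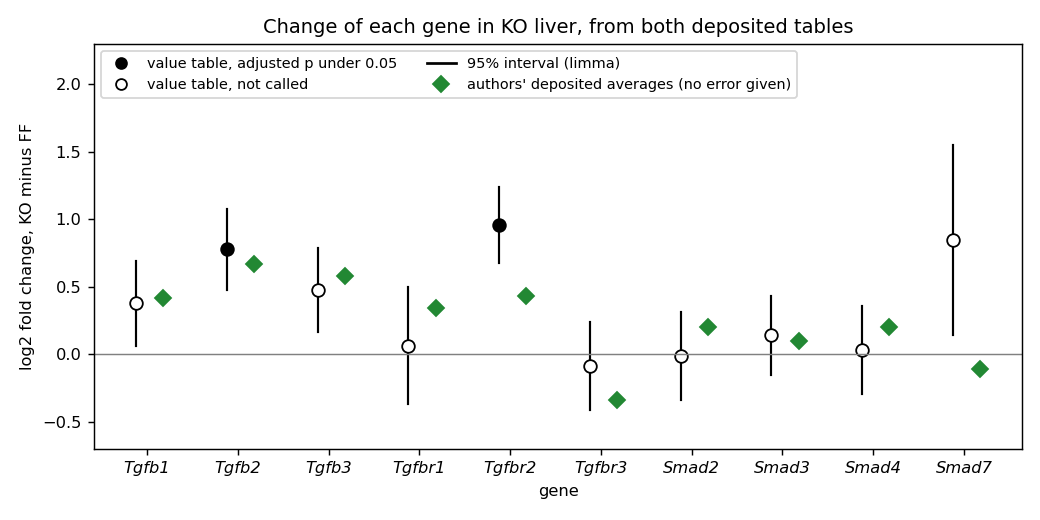
Log2 fold change of KO against FF (vertical axis) for each of the 10 genes (horizontal axis). Circles are from the array values, filled where the limma adjusted p was under 0.05, with 95% intervals as lines, and green diamonds are differences of the authors' deposited averages, which have no error. Only the circles of Tgfbr2 (0.96) and Tgfb2 (0.78) are filled, and the Smad7 diamond lies at -0.11 below its circle at 0.85.

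The genes whose pattern over the 4 arrays was most like that of Tgfbr2 were Nedd9, Lcat and Col4a1. The measure was the Euclidean distance between log2 values after subtraction of each gene's mean, over 15259 genes above background, and it came to 0.04, 0.06 and 0.06. Their log2 fold changes were 0.98 for Nedd9, a scaffold protein of focal adhesions, 0.91 for Lcat, a plasma enzyme that esterifies cholesterol, and 0.92 for Col4a1, a basement membrane collagen chain. In the authors' deposited table the log2 differences were 0.42 for Nedd9, 0.87 for Lcat and -0.16 for Col4a1, beside 0.43 for Tgfbr2. With 4 arrays such likeness reflects little more than a similar change and a small spread.

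Of 20 measured genes that store and release latent TGF-beta, 5 rose and 0 fell (25.0%, against 1.77% of all genes), and the median log2 fold change was 0.42, against -0.02 over all genes. With the replicate number as a block, or with all probe sets tested, limma called 0 of them (12 and 10 at an unadjusted p under 0.05). Over everything tested, these fits called only 30 of 29432 genes and 42 of 41345 probe sets. At an unadjusted p under 0.05 they had 4568 and 5959, which also stand beside such counts of the lists below. Mmp2, a matrix protease, rose from 3.86 and 4.17 to 6.09 and 5.40, a log2 fold change of 1.73 ± 0.25 (SE; limma adjusted p = 0.0373). Fbn1, the fibrillin that anchors latent complexes in microfibrils, rose by 1.52 ± 0.20 (limma adjusted p = 0.0319). Bgn, a small proteoglycan that binds TGF-beta, rose by 1.16 ± 0.13 (limma adjusted p = 0.0234).

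The remaining 2 called genes were integrin chains, named to complete the count. Itgb5 rose by 0.96 ± 0.12 (limma adjusted p = 0.0307), and its log2 difference was 0.45 in the authors' deposited table. Itgb8, whose dimer with the alpha V chain releases active TGF-beta, rose from 2.91 and 2.90 to 3.92 and 3.64, by 0.88 ± 0.14 (limma adjusted p = 0.0487). A few genes that did not pass were picked after their values were seen. Lrrc32, which tethers latent TGF-beta at cell surfaces, had a log2 fold change of 1.06 ± 0.19 (limma adjusted p = 0.0618). Its log2 difference was only 0.24 in the authors' deposited table. Thbs1, thrombospondin 1, an activator of latent TGF-beta, was at 2.43 and 2.90 in FF and at 3.11 and 5.68 in KO, so its change of 1.73 rests on KO replicate 2. Furin, the protease that cleaves the TGF-beta precursor, had a log2 fold change of -0.56 ± 0.12 (limma adjusted p = 0.0887).

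No gene of the co-receptor and receptor regulator list passed limma, of 17 measured, and the median log2 fold change was 0.16. At an unadjusted p under 0.05 there were 4, against 17.0% of all genes. The largest changes there were Pmepa1, a transmembrane inhibitor of the pathway, at 0.63 ± 0.31 (limma adjusted p = 0.379), and Eng, the endothelial co-receptor endoglin, at 0.46 ± 0.14 (limma adjusted p = 0.186). Pmepa1 was at 4.05 and 4.02 in FF and at 5.15 and 4.18 in KO, so its change rests on KO replicate 1. Of 18 SMAD cofactors and repressors 1 rose and 0 fell (5.56%, against 1.77% of all genes), with a median of -0.02. The gene that rose was Nedd4l, a ubiquitin ligase that targets activated SMAD2 and SMAD3, from 7.40 and 7.53 to 8.57 and 8.42, a log2 fold change of 1.03 ± 0.13 (limma adjusted p = 0.0275).

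No gene of the BMP and activin branch, which uses related receptors and shares SMAD4, was called. Over all genes 1.77% were called, so none in lists this short is near that share. At an unadjusted p under 0.05 the share over all genes was 17.0%. None of 13 receptors and SMADs passed limma (4 at an unadjusted p under 0.05), with a median of -0.04. Smad6, the inhibitory SMAD of the BMP branch, had a log2 fold change of 0.56 ± 0.11 (limma adjusted p = 0.0856), and Smad9 was at -0.61 ± 0.29 (limma adjusted p = 0.375). The authors' deposited table gave log2 differences of 0.08 for Smad6 and -0.55 for Smad9. None of 26 ligands and ligand traps passed limma (8 at an unadjusted p under 0.05), with a median of 0.03. The largest changes were Gdf15, a stress-induced member of the superfamily, at 0.91 ± 0.24, and the activin chain gene Inhba, at -0.65 ± 0.43, with limma adjusted p of 0.144 and 0.517. Their log2 differences in the authors' deposited table were 0.21 and -0.59. Transcripts commonly raised by BMP signalling had 0 calls of 12 (5 at an unadjusted p under 0.05) and a median of 0.29, which was 0.15 without KO replicate 1 and 0.45 without KO replicate 2. Hamp2 and Id1 were at 1.46 ± 0.37 and 1.03 ± 0.20, with limma adjusted p of 0.129 and 0.0732.

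Transcripts that TGF-beta commonly raises were measured for 35 genes, of which 6 rose and 0 fell (17.1%, against 1.77% of all genes). Their median log2 fold change was 0.30. With the replicate number as a block, or with all probe sets tested, 1 was called. Cdkn1a, a cell cycle inhibitor that p53 also induces, rose by 5.30 ± 0.19 (limma adjusted p = 0.00135). Col3a1, a fibrillar collagen chain, rose from 4.78 and 5.10 to 6.65 and 6.59, by 1.68 ± 0.15 (limma adjusted p = 0.0125). Col1a1, the main chain of scar collagen, rose from 4.62 and 4.64 to 6.09 and 6.19, by 1.51 ± 0.12 (limma adjusted p = 0.00887). Col1a2 rose by 1.29 ± 0.12 and Col4a1 by 0.92 ± 0.11, with limma adjusted p of 0.0154 and 0.0275, and Mmp2 was the sixth. Col1a2 is named to complete the count. The authors' deposited table had smaller log2 differences of 0.83 for Col3a1 and 0.66 for Col1a2, and for Col4a1 the opposite direction at -0.16.

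Other transcripts of this list did not pass the test. Ctgf, a matricellular growth factor gene, was at 4.86 and 4.83 in FF and at 5.16 and 5.96 in KO, with a limma adjusted p of 0.249. Its KO arrays lay above the FF arrays and KO replicate 2 was clearly the higher, while for Smad7 and Pmepa1 it was KO replicate 1. Tgfbi, a matrix protein gene named for its induction by TGF-beta, was at 1.06 ± 0.21 (limma adjusted p = 0.0753). Nox4, an oxidase that makes hydrogen peroxide, was at -0.92 ± 0.15 (limma adjusted p = 0.0543). Ctgf, Tgfbi and Nox4 were picked after their values were seen.

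**Figure D3:**
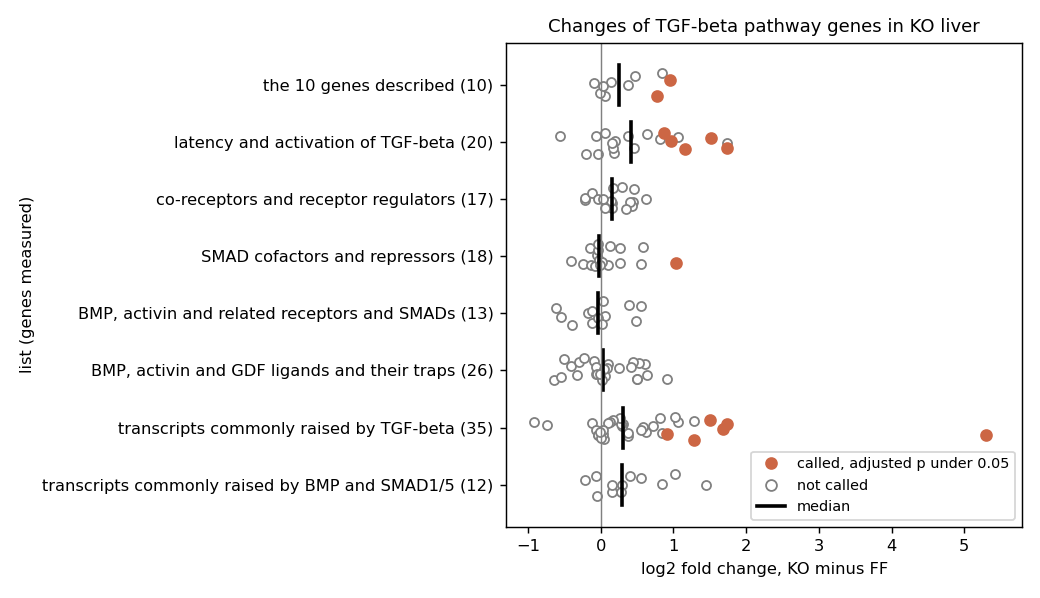
Log2 fold change of KO against FF (horizontal axis) of each measured gene of the 10 described and of 7 pathway lists (vertical axis, number measured in brackets), with orange points called at an adjusted p under 0.05, open points not called and black bars for medians. The called genes lie to the right, most of them in the latency list (5 of 20) and among transcripts commonly raised by TGF-beta (6 of 35), where Cdkn1a stands alone at 5.30.

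Some markers of stellate cells and of bile duct cells rose in KO liver. Of 19 stellate cell and fibroblast markers 7 rose and 0 fell (36.8%, against 1.77% of all genes). Their median log2 fold change was 0.91. Both KO arrays lay above both FF arrays for 15 (21.6% of all genes) and below them for 1 (25.0% of all genes). With the replicate number as a block, or with all probe sets tested, limma called 0 of the 19 (15 and 13 at an unadjusted p under 0.05). Col1a1, Col1a2 and Col3a1 are also in the list of transcripts commonly raised by TGF-beta. Without genes shared with a pathway list, an alternative chosen after seeing the data, 4 of 14 were called, with a median of 0.88. Cygb, a globin of stellate cells, rose by 1.71 ± 0.19 (limma adjusted p = 0.0215), as did Col3a1 and Col1a1 above. The summed level of this list, as log2 of the summed linear values, was 11.04 and 10.91 in FF and 11.96 and 11.69 in KO, and 0 of its markers lay under the background guide in FF. In bulk liver, more cells of a type and more RNA per cell cannot be told apart.

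Kupffer cell and macrophage markers lay higher on both KO arrays than on both FF arrays for 13 of 13 genes (21.6% of all genes). Yet 0 were called by limma, with 8 at an unadjusted p under 0.05 (17.0% of all genes). Their summed level was 10.27 and 10.36 in FF and 11.35 and 10.74 in KO, with the median of KO replicate 1 at 0.95 and of KO replicate 2 at 0.42 against the FF mean. The largest were Marco, a scavenger receptor, at 1.38 ± 0.58, and Adgre1, the F4/80 antigen, at 1.28 ± 0.40, with limma adjusted p of 0.307 and 0.191. Bile duct markers had 2 rises of 10 (20.0%, against 1.77% of all genes). These were Prom1 at 1.69 ± 0.14 and Tspan8 at 1.64 ± 0.20, with limma adjusted p of 0.0120 and 0.0261. With the replicate block or with all probe sets tested, limma called 0 of the 10 (7 and 5 at an unadjusted p under 0.05). Their summed level was 7.62 and 8.17 in FF and 9.33 and 8.93 in KO, and 6 of the 10 had FF means under the guide.

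No marker of sinusoidal endothelial cells or of blood-derived myeloid cells passed the test, and over all genes 1.77% did. At an unadjusted p under 0.05 the share over all genes was 17.0%. Of 15 sinusoidal endothelial markers none passed limma (4 at an unadjusted p under 0.05). Both KO arrays lay above both FF arrays for 9 of the 15 (21.6% of all genes) and below them for 0 (25.0% of all genes). The median was 0.14, or 0.25 without FF replicate 1, and summed levels were 11.27 and 11.18 (FF) against 11.43 and 11.37 (KO). Lyve1 and Stab1 were the largest, at 0.66 ± 0.17 and 0.47 ± 0.15, with limma adjusted p of 0.139 and 0.196. Of 9 monocyte and neutrophil markers none passed limma (2 at an unadjusted p under 0.05), with a median of 0.34, or 0.05 without KO replicate 1 and 0.63 without KO replicate 2. Lyz2 and Ly6c2 were at 0.66 ± 0.23 and 0.54 ± 0.24, the summed level was 7.27 and 7.27 in FF and 8.09 and 7.50 in KO, and 4 of the 9 lay under the guide in both groups.

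Lymphocyte markers had a median near 0 and hepatocyte markers a slightly negative one. Of 12 T, B and NK cell markers none passed limma, also at an unadjusted p under 0.05 (17.0% of all genes). Their median of -0.04 has no settled direction: it was 0.15 without KO replicate 2, 0.02 without FF replicate 1 and -0.23 without KO replicate 1. Their summed level was 6.52 and 6.53 in FF and 6.65 and 6.33 in KO, 6 of the 12 lay under the guide in both groups, and Cd4 and Cd79a had the largest changes, at -0.21 ± 0.12 and -0.20 ± 0.41. The 6 hepatocyte markers had a median of -0.10 and no call by limma (1 at an unadjusted p under 0.05). Both KO arrays lay below both FF arrays for 5 of the 6 (25.0% of all genes) and above them for 0 (21.6% of all genes). Apoa1 and Cps1 were the largest there, at -0.33 ± 0.11 and -0.15 ± 0.12, and the summed level was 14.55 and 14.52 in FF and 14.41 and 14.45 in KO. The part of cell make-up in the changes of Tgfbr2, Tgfb2 and the latency and matrix genes was not tested.

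**Figure D4:**
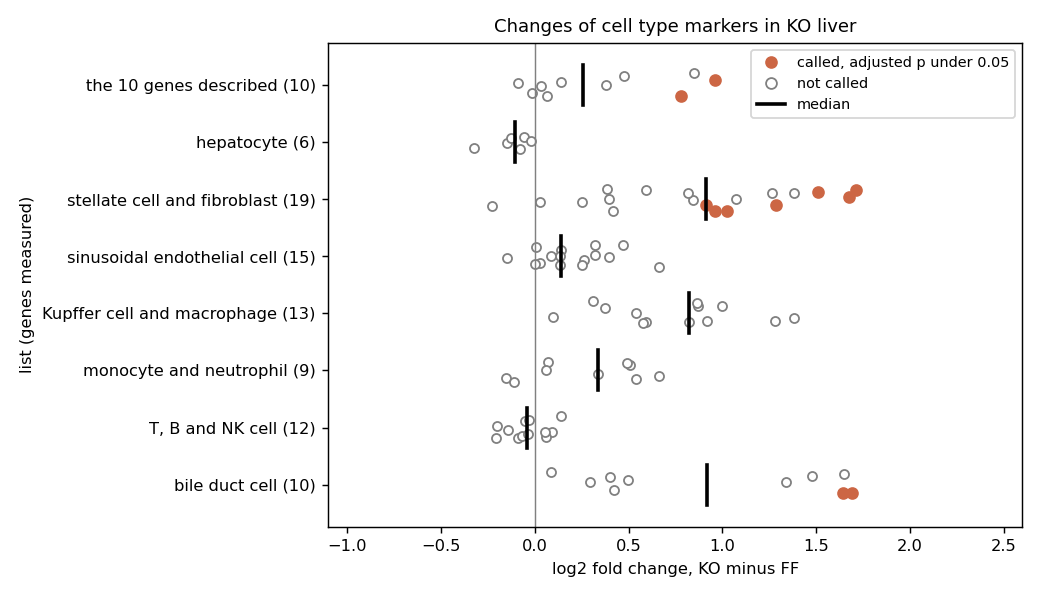
Log2 fold change of KO against FF (horizontal axis) of the 10 genes described and of markers of 7 liver cell types (vertical axis, number measured in brackets), drawn with orange points for called genes, open points for the others and black bars for medians. Medians are 0.91 for stellate cells, 0.92 for bile duct cells and 0.82 for Kupffer cells. They lie at -0.10 for hepatocytes and -0.04 for lymphocytes.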

How the data were processed

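RNA of 4 mouse livers, 2 FF and 2 KO as titled in the labels, was measured on 1-colour arrays. Per the submitters' processing notes, the authors used Affymetrix Expression Console and its RMA method to make the log2 values of the deposited value table, with no version named. RMA equalises the arrays' distributions, so a change in total RNA per cell cannot be seen. The log base was taken from the log2 averages in the authors' deposited fold change table, which also supplied gene symbols, per the file headers (annotation for mm10). Probe sets with 1 symbol were used, and for each gene the one with the highest mean, giving 29432 genes without a filter on dim ones. KO was compared with FF in limma 3.58.1 (R 4.3.3; lmFit and eBayes, no block), with Benjamini-Hochberg adjustment over all genes and calls at an adjusted p under 0.05. Residual degrees of freedom were 2 and prior ones 3.79. Coordinates and promoters are RefSeq's for GRCm38.p6, where all 10 genes were found and 5 had a promoter entry.

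The 10 genes and all lists were chosen with earlier results of these data known. The 7 pathway and 7 marker lists are described by counts and medians, with no set test. In the fit reported, 17.0% of all genes had an unadjusted p under 0.05. With the replicate block 4568 of 29432 genes did, and with all probe sets tested 5959 of 41345 probe sets. Counts of a list at that threshold are to be read beside the value of the same fit. Genes named are the 10, Polr2m, up to 3 called genes in each direction per list or, with no call, its 2 largest changes, and the 3 genes most like the member that changed most. Hepatocyte markers as a check of the tissue, genes that complete a short count and a few others picked after their values were seen are named in addition. Replicate numbers occur in both groups, but the labels do not say that they pair animals, and no scan date is given, so batches could not be checked. Alternatives are given in the closing section. A gene of the lists is not reported here by name.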

Additional observations from a re-analysis of the deposited data

How the results depend on the processing

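Of all genes, limma called 522 in the fit reported, 30 with the replicate number as a block and 975 with a robust variance trend. It called 850 without the 50% of genes with the lowest means, and 1235 at an adjusted p under 0.1. With all probe sets tested, it called 42 of 41345 probe sets. In the fits with any 1 array left out, given above, a lone array stands for a group, so the spread within groups comes from the other group alone. Of the 10 genes, 2 were called as reported, 0 with the replicate block or with all probe sets tested (5 of the 10 at an unadjusted p under 0.05 in each), 1 with a variance trend, where Tgfb2 had an adjusted p of 0.0519, and 1 of the 8 that remained without the dimmer genes, since Tgfb2 and Tgfb3 fell out. With the replicate block, adjusted p was 0.110 for Tgfbr2 and 0.129 for Tgfb2. Deviations of same-numbered arrays from their group means correlated at -0.01 over all genes. This value shows no pairing over genes as a whole, but it cannot exclude one that affects part of them. Both calls remained with median centring, cyclic loess and a robust trend. They also remained with averaged probe sets, but each of the 10 genes has 1 probe set, so their values could not change. Over all alternatives adjusted p ran from 0.0107 to 0.343 for Tgfbr2 and from 0.0332 to 0.367 for Tgfb2, and neither changed direction.

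Direction turned for Smad2, Smad4, Tgfbr1 and Tgfbr3, all near 0, and for Smad7, at 0.85 in the fit reported. Smad2 was at 0.0078 with median centring and 0.20 in the authors' deposited table, Smad4 at -0.0134 with cyclic loess, and Smad7 at -0.11 in the authors' deposited table. With 1 array left out, Smad2 ran from -0.124 to 0.0942, Smad4 from -0.0555 to 0.120, Tgfbr1 from -0.162 to 0.288 and Tgfbr3 from -0.192 to 0.0171. The cause was not tested. List medians under 0.1 in size also turned in some settings. For example, that of BMP and activin receptors and SMADs was 0.0076 without FF replicate 1, that of their ligands -0.0104 without it, that of SMAD cofactors 0.0681 without FF replicate 2, and that of lymphocyte markers 0.10 in the authors' deposited table. A further alternative, chosen after seeing the data, left out the 10 genes and those in a marker list. Of transcripts commonly raised by TGF-beta 3 of 29 were then called, with a median of 0.28. Of latency genes 5 of 19 were called, with a median of 0.38. Only Dcn was left out there, and it was not called in the fit reported, so the count of 5 could not change. This alternative therefore does not separate the latency genes from the stellate cell markers. With 2 arrays a group, the fit reported called no change under 0.72, and some larger ones were not called either.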
